A study of Mus musculus with 8 samples.

Results

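Intronic CCGG sites outside promoters and CpG islands were the set examined here. A member was a CpG position and strand in the reduced representation hydroxymethylation profiling (RRHP) count tables that carried a gene name in the intron column, nothing in the exon and promoter columns, no mark for a CpG island, and an autosomal position. There were 412810 such sites of 1497075 sites in all (27.6%), at 315107 different CCGG sequences under 15836 gene names. They were read in cells sorted from C57BL/6 mouse brain at postnatal day 60. The progenitors of oligodendrocytes in the adult (aOPC) were sorted from Pdgfra-H2BEGFP mice, in which the Pdgfra locus drives a nuclear green fluorescent protein, and adult oligodendrocytes (aOL) from Plp-EGFP mice, in which the promoter of a myelin protein gene drives the reporter. The populations therefore differ in mouse line as well as in cell type, and these cannot be told apart. From each population 2 RRHP and 2 RNA libraries, numbered 2 and 3, were used, with DNA and RNA taken from one cell pellet. The study lists a further library of each kind per population, which was not used here. For the aOL RRHP libraries the title was used for grouping, because their tissue field gives the Pdgfra reporter instead. In the RNA titles the aOL cells are described as pre-myelinating. The study's methods speak of biological replicates for RRHP, but the labels do not say whether libraries came from separate animals or pools, so p-values measure the spread between these samples only.

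The RNA libraries were checked against marker genes first. On the deposited log2 scale the median of the oligodendrocyte and myelin genes was 16.5, 16.4, 16.4 and 16.4 in aOPC 2, aOPC 3, aOL 2 and aOL 3. The median of the 18 progenitor genes with intron members and RNA values was 8.75, 6.93, 7.14 and 7.36, so aOPC 3 lay below both aOL libraries, while the log2 of their summed level over all 21 in the RNA table was 17.49, 17.24, 17.11 and 17.17, with both aOPC libraries above both aOL. Of the 18 genes, 7 had both aOPC values above both aOL values (29.7% of all RNA genes did) and 3 had both below (31.7%). Neu4, a sialidase of progenitors, was at 9.90 and 7.07 for aOPC against 3.03 and 3.61 for aOL, and Vcan, the proteoglycan versican, at 8.87 and 5.27 against 2.49 and 3.24. Pdgfra, the receptor that defines progenitors, had 7.54 and 5.47 for aOPC against 4.98 and 1.64 for aOL, and Cspg4, the NG2 proteoglycan, was at 8.05, 6.79, 6.39 and 6.83. The RNA of the libraries labelled aOPC thus held myelin transcripts at the level of aOL, and these progenitor markers were far below them in all 4 libraries. Pericyte and fibroblast genes moved with the population: the mean of the 6 listed in the RNA table was 7.71 and 8.33 for the aOPC libraries against 5.73 and 4.76 for aOL. The mean of 3 endothelial genes was 6.20 and 6.73 against 7.54 and 8.08, the other way, although the log2 of their summed level overlapped (10.14, 10.21, 10.02 and 10.40). The part of such cells in the results was not tested. In sorted bulk cells fewer cells of a type and less RNA per cell cannot be told apart. RRHP library totals were 7113237, 17121440, 15923775 and 27057859 counts in the same order, so that 3 counts, the limit that a count of 0 allows, equal 0.422, 0.175, 0.188 and 0.111 CPM, that is, counts scaled to a common library total. These limits cover counting error only.

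5-Hydroxymethylcytosine (5hmC) arises when TET enzymes oxidise methylated cytosine in CpG pairs. In brain it is abundant along gene bodies and scarce at unmethylated CpG islands. RRHP detects it at CCGG, the recognition sequence of MspI: a glucose is added to 5hmC, the modified site resists MspI, and the protected end keeps its adapter and can be amplified. A read therefore needs both the mark at the site and another MspI end close enough to give a clonable fragment. The length to that next CCGG on the read side was taken from the GRCm38 reference for each member.

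The fragments behind the results that follow are shown 5′ to 3′ from the site that was read, with each CCGG in capitals. They come from the GRCm38 assembly of RefSeq. The first set holds a pair of intron sites, 1 lower and 1 higher in aOL, from those that changed most between the populations among those read at least 10 times in each library, and it is shown because all 4 libraries had reads there.
Acvr2b (chr9:119420939-119421208, minus strand): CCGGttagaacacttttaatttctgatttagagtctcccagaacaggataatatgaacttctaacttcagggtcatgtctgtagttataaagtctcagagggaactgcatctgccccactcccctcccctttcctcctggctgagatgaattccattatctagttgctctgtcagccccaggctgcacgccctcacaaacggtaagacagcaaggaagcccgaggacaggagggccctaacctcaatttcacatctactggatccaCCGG
Tbc1d5 (chr17:50999563-50999766, minus strand): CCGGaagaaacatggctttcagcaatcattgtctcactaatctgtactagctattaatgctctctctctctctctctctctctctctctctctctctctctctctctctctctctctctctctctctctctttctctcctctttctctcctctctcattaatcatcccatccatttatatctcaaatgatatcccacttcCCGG
The second set holds sites read in 1 population only. The first 3 had reads in aOPC and lie on short fragments, shown whole.
Asap2 (chr12:21240096-21240295, plus strand): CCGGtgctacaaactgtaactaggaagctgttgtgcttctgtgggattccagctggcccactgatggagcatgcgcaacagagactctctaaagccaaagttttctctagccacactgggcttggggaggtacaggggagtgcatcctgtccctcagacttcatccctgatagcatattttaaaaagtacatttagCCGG
Zfhx3 (chr8:108776939-108777069, plus strand): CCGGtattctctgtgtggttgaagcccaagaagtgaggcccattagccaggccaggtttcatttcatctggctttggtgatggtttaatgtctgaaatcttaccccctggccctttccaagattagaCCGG
Rbl2 (chr8:91088181-91088270, minus strand): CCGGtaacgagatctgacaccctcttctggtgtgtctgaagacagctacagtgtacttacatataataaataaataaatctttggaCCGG
The other 3 had reads in aOL, and the next CCGG of the reference lies too far away to be shown, so the first 60 bases are given.
Rnf144a (chr12:26372949-26373008, plus strand): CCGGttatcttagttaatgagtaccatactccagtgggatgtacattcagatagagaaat
Negr1 (chr3:156569335-156569394, plus strand): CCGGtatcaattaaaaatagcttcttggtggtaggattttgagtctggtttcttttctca
Rbfox1 (chr16:7255487-7255546, minus strand): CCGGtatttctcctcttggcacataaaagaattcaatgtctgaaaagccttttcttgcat
The last is the read end of the member with the highest count, and its first 50 bases match all 50 compared bases of Rn18s-rs5, an 18S ribosomal RNA copy, and occur 3 times in the assembly.
Gnb1l (chr16:18533256-18533315, plus strand): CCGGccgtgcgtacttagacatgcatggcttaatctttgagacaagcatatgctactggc

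Which intron sites gave reads depended first on the fragment. GRCm38 holds 521366 intronic CCGG sequences by RefSeq gene models, each with 2 ends, and 42.1% of the 1042732 ends had a read in some library. Among the 220328 ends whose fragment was 41 to 300 bases long, which are called readable here, 98.8% had a read. In fragments over 500 and up to 700 bases the share was 26.7%, and over 1000 and up to 2000 bases it was 14.8%. Of the members, 202947 (49.2%) lay on readable fragments, and they carried 85.3% and 87.0% of the member counts in aOPC 2 and aOPC 3 and 81.7% and 82.3% in aOL 2 and aOL 3. Their mean level was 1.41, 1.63, 1.57 and 1.48 CPM per site, against 0.0705, 0.0748, 0.117 and 0.107 CPM in the 134079 members on fragments over 400 bases. The range of 41 to 300 bases was chosen after these values were seen.

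**Figure D1:**
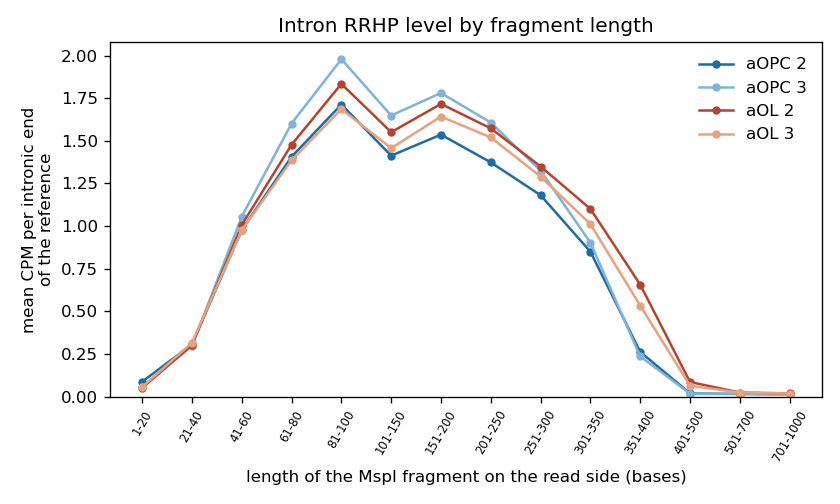
Mean CPM per intronic CCGG end of the reference (y) against the length of the MspI fragment on the read side in bases (x), 1 line per library. Levels peak at 81 to 100 bases in all 4 libraries, and above 300 bases both aOL libraries lie above both aOPC libraries.

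The upper end of that curve differed between the populations. Over 350 and up to 400 bases the members had 0.277 and 0.250 CPM in the aOPC and 0.703 and 0.570 CPM in the aOL libraries, which do not overlap. Over 400 and up to 500 bases the levels were 0.0391, 0.0355, 0.172 and 0.129 CPM. At 81 to 100 bases they were 1.76, 2.05, 1.90 and 1.75 CPM and overlapped. Reads from longer fragments thus moved with population, so the comparisons of aOL with aOPC that are counted over sites or genes are given on readable fragments too.

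Intron sites carried 33.5%, 38.1%, 38.9% and 36.6% of all counts in aOPC 2, aOPC 3, aOL 2 and aOL 3. Over all listed sites the intron level was 0.812, 0.922, 0.942 and 0.886 CPM per site and lay below the exon level in 4 of 4 libraries, with an intron to exon ratio from 0.83 to 0.87. On readable fragments that order was gone, with ratios of 0.995, 1.04, 1.02 and 0.992 (exact paired permutation p = 0.5). Against intergenic sites the intron level on readable fragments was 1.26, 1.46, 1.51 and 1.38 times as high, and against promoter sites outside islands 1.71, 2.45, 2.52 and 2.38 times. The ratio to promoter sites inside islands, where 5hmC is scarce, was 4.14, 13.3, 14.8 and 9.61, lowest in aOPC 2. The orders against intergenic and promoter sites held in 4 of 4 libraries, and the exact two-sided paired permutation test over the libraries gave p = 0.125, the smallest it can give.

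**Figure D2:**
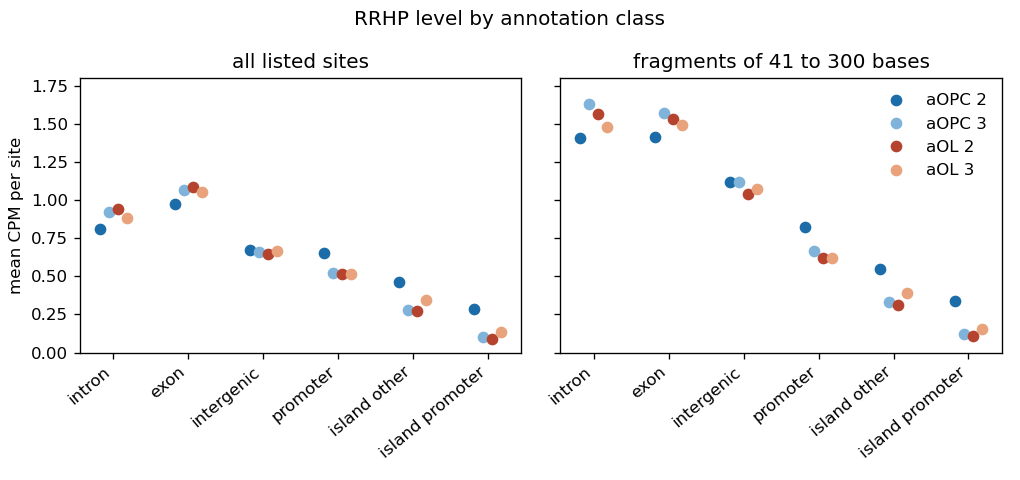
Mean CPM per site (y) in 6 annotation classes (x) for all listed sites (left) and for sites on fragments of 41 to 300 bases (right), 1 point per library. Intron sites lie below exon sites on the left and level with them on the right, and above intergenic, promoter and island sites in both.

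The classes differed in repeat content. Of the readable intron sites 27.6% lay in sequence that the reference marks as repeat, against 51.9% of the intergenic and 1.98% of the exon sites. Intron sites in repeats had 0.860, 0.957, 0.904 and 0.925 CPM, and those outside repeats 1.62, 1.89, 1.82 and 1.70 CPM. In repeats exon sites had 1.31, 1.41, 1.40 and 1.33 CPM (986 sites), above intron sites in 4 of 4 libraries, and intron sites were 1.14, 1.32, 1.36 and 1.25 times as high as intergenic ones. Outside repeats intergenic sites had 1.52, 1.54, 1.44 and 1.44 CPM and exon sites 1.42, 1.58, 1.54 and 1.499 CPM, so that unmasked intron sites were the highest of the 3 in each library. Each of these orders gave an exact paired permutation p of 0.125, and intron sites thus lay below exon sites in masked and above them in unmasked sequence. How the authors placed reads that match several positions is not given in the sources used here.

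Among readable intron sites the level was lower where GC content and CpG number were higher. In the 200 bases around it, a GC content of at most 40% went with 2.24, 2.68, 2.63 and 2.46 CPM, and a GC content over 65% with 0.508, 0.467, 0.399 and 0.693 CPM. With 1 CpG in the window the levels were 1.70, 2.05, 1.99 and 1.84 CPM, and with more than 12 they were 0.564, 0.443, 0.390 and 0.584 CPM. By place in the gene the levels differed less. Within 2000 bases of the transcription start the median site had 0.584 CPM over the 4 libraries, the medians of the next 6 distance bins lay between 0.843 and 0.877 CPM, and in the farthest bin the median was 0.736 CPM. By intron number the medians were 0.827 CPM in intron 1 and 0.831 CPM in intron 6 and later. These are descriptions across sites of the same 4 libraries, without a test.

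The spread between single sites was wide. The median readable member had 0.703, 0.818, 0.816 and 0.813 CPM, and the 99th percentile was 9.98, 10.3, 9.99 and 8.91 CPM. Both ends of the same readable fragment correlated across 92861 fragments with Pearson's r of 0.38, 0.42, 0.44 and 0.41 on log CPM, whereas in 11413 fragments over 500 bases r was between 0.05 and 0.09. The cytosines of the 2 strands of a CCGG are read from different fragments. Where both of these were readable (25117 sites), r was 0.38, 0.54, 0.57 and 0.48. Where only 1 was (46074 sites), the strand with the readable fragment had 1.72 CPM on average against 0.266 CPM for the other and was higher in 89.3%. Between libraries the readable members correlated with r = 0.86 within aOPC and 0.95 within aOL, and aOPC 3 correlated with the aOL libraries at 0.92 and 0.91, above its value with aOPC 2. These points share libraries, fragments and base composition.

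The 5 members with the highest counts stood far above this range. An intron 2 site of Gnb1l, a WD-repeat protein gene, at chr16:18533257 (plus strand) had 320, 269, 368 and 504 CPM. An intron 12 site of Sfi1, a centrosomal protein gene, at chr11:3150641 (minus strand) had 112, 141, 113 and 152 CPM. A site in Zc3h7a and a pair in Cdk8 had between 26.6 and 91.0 CPM in single libraries. Together the 5 held between 0.134% and 0.228% of the member counts. None of the 5 passed the edgeR test between the populations (adjusted p from 0.42 to 0.98). The Gnb1l read end, printed above, has further copies in the assembly, so the origin of its counts is uncertain. The first 50 bases of the Sfi1, Zc3h7a and Cdk8 read ends occur 1 time each in the assembly. They were compared with the 18S copy only, and a match to other ribosomal RNA was not tested, so these origins are not settled either.

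The gene-wise question was whether introns of genes with more RNA carried more 5hmC. A gene's intron level was the mean CPM of its members, for genes with at least 5 members whose name lay in the RefSeq gene of that name (15633 of 15836 names did), and the RNA level was the deposited log2 value per kb of transcript. Across 7405 genes Spearman's coefficient was 0.056, 0.073, 0.087 and 0.068 in aOPC 2, aOPC 3, aOL 2 and aOL 3. On readable members it was 0.160, 0.178, 0.188 and 0.171 across 5169 genes, and with at least 20 readable members 0.280, 0.283, 0.275 and 0.261 across 1736 genes. All coefficients were above 0 and small, they are across genes and not replicates, and they rose where more sites stood behind a gene's level.

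In 10 equal bins of RNA level, the median intron level of readable members went from 1.22, 1.41, 1.36 and 1.32 CPM in the lowest bin to 1.62, 1.93, 1.88 and 1.72 CPM in the highest. Genes in the lowest bin were longer than those in the highest, with a median of 74.6 kb against 32.6 kb by the aOPC bins. In 3 equal groups by gene length the coefficients were 0.234, 0.259, 0.266 and 0.249 among the longest genes and 0.147, 0.180, 0.172 and 0.153 among the shortest. The 3101 genes that the RNA table does not list had lower introns than any bin, with medians of 1.10, 1.19, 1.12 and 1.12 CPM. How the authors chose the listed genes is not stated.

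**Figure D3:**
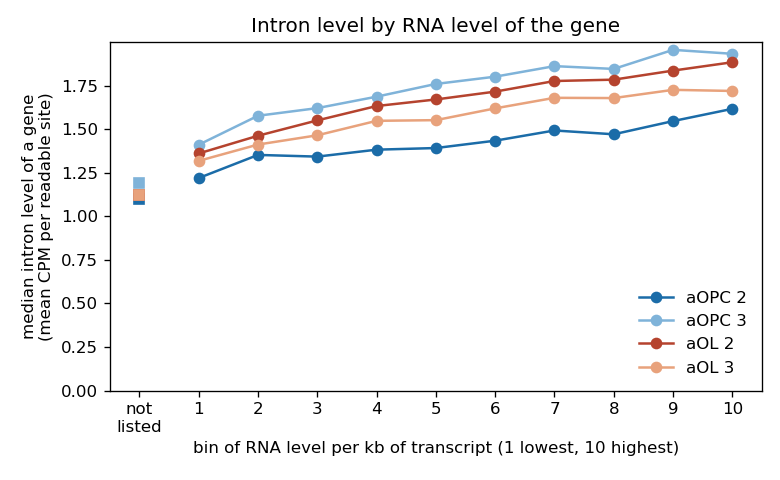
Median intron level of a gene in mean CPM per readable site (y) by bin of RNA level per kb of transcript (x, 1 lowest and 10 highest), with squares for genes not in the RNA table and 1 line per library. Each line is higher at bin 10 than at bin 1, and the squares lie lowest.

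Intron levels were also set beside those of neighbouring sites. Across 4013 genes the readable intron level correlated with that of exon sites of the same gene at a Spearman coefficient of 0.183, 0.256, 0.264 and 0.234, and across 6121 genes with intergenic sites within 20 kb at 0.111, 0.157, 0.179 and 0.164. With the promoter sites of the same gene (3353 genes) it was between -0.016 and 0.040, and the intron level was the higher in 86.8% of those genes.

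Among genes with at least 50 members and a matching name, the highest intron levels were those of Sfi1, Irf2, Acvr2b, Lamc1, Prr5l, Serinc5, Nin and Prox1. Irf2, an interferon regulatory factor, had 3.48, 4.71, 4.48 and 3.92 CPM per readable site in aOPC 2, aOPC 3, aOL 2 and aOL 3 (29 sites). Lamc1, a laminin chain, had 3.50, 4.15, 4.18 and 3.72 CPM (41 sites). Serinc5, a membrane protein gene with high RNA here (log2 15.4 to 16.1), had 3.44, 3.61, 3.64 and 3.11 CPM, and Prr5l, which encodes a partner of mTOR, had 2.77, 3.26, 3.04 and 2.80 CPM. The place of Sfi1 rested on the single site named above, since its 17 readable members had only 0.926, 1.13, 1.05 and 1.02 CPM. The lowest levels were those of Sema3c, Tacr3, Caps2, Vmn2r27, Afm, Fancl, 5730522E02Rik and Sult2a3. Tacr3, a neurokinin receptor, had 0.344, 0.281, 0.206 and 0.421 CPM per readable site, and Afm, which encodes a plasma protein made in liver, had 0.419, 0.212, 0.217 and 0.286 CPM. All 8 high genes are in the RNA table, with mean log2 values from 8.57 to 15.9, and of the 8 low genes only Sema3c and Fancl are, at 6.89 and 8.34.

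CPM and the scaled counts of the tests are relative to each library, so a gain or loss shared by all sites cannot show in them. Between the populations, the mean intron level overlapped. Over all members it was 0.867 ± 0.078 CPM in aOPC and 0.914 ± 0.040 CPM in aOL (SD, n = 2 each), a ratio of 1.05 with exact two-sided permutation p = 0.667, where 2 libraries against 2 cannot go below 0.333. Without aOPC 2 the ratio was 0.992. On readable members it was 1.52 ± 0.16 and 1.52 ± 0.058 CPM, a ratio of 1.003 (exact permutation p = 1).

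Single sites were tested with edgeR on raw counts where at least 2 libraries had 10 reads, with p-values adjusted over the sites of all classes. Of 162706 tested intron sites 2307 were higher in aOL (1.42%) and 1964 were lower (1.21%) at an adjusted p under 0.05. Over the 443062 tested sites of all classes 1.21% were higher and 1.08% lower, 2.29% in all, so intron sites were called about as often as any site. Scaled to the read totals of the study instead of TMM, 3103 were higher and 1684 lower. The direction of the calls went with the fragment. On readable fragments 112 of 129193 tested intron sites were higher and 1753 lower. On fragments over 350 bases 2106 of 13953 were higher and 30 lower, and over 400 and up to 500 bases 40.8% of the tested sites were higher in aOL. Of the sites higher in aOL 91.3% thus lay on fragments over 350 bases. There the median log2 change of tested sites was 1.37 over 350 and up to 400 bases and 3.82 over 400 and up to 500 bases. It was only 0.089 over 500 and up to 1000 bases and 0.078 over 1000 bases. In these 2 ranges 304 of 1446 and 597 of 3157 tested sites were still called higher. Fitted on readable fragments alone, 86 intron sites were higher and 1621 lower, against background shares of 0.0702% and 1.1% over all 343188 readable sites tested.

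**Figure D4:**
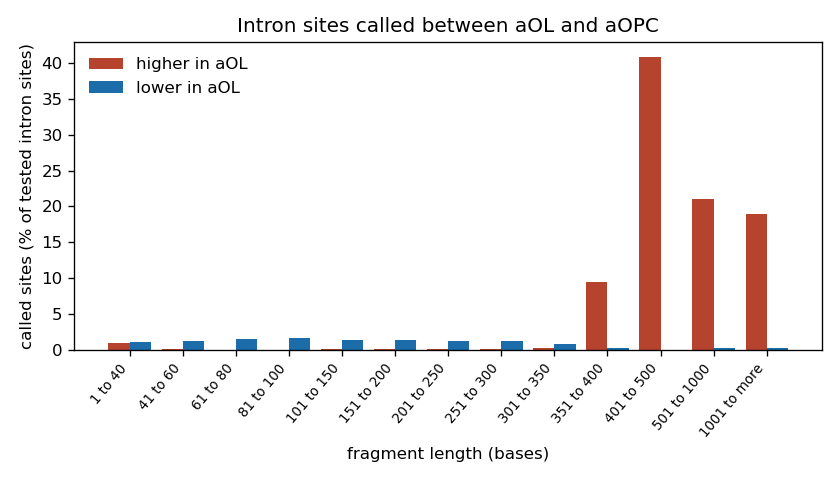
Share of tested intron sites called between the populations (y, percent) by length of the fragment on the read side (x, bases), higher in aOL and lower in aOL. Calls higher in aOL take 9.49% of sites over 350 and up to 400 bases and 40.8% over 400 and up to 500 bases, and up to 0.119% between 41 and 300 bases, where calls lower in aOL take between 1.18% and 1.63%.

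Most called sites had few or no reads in one population. At most 3 counts in both libraries of one population were found at 79.2% of the higher and 78.3% of the lower sites, but at 3.59% of all tested intron sites. The 25 bins of 5 Mb with the highest share of such sites among tested sites of all classes, of 496 bins, were chosen for that share, so their calls are a description. They held 5.18% of the tested intron sites, 22.6% of the higher and 44.5% of the lower ones. Without these bins 1420 intron sites were higher and 1021 lower (0.92% and 0.66%), beside 0.79% and 0.61% over all classes. On readable fragments outside the bins and with counts in both populations, the fit called 13 higher and 64 lower of 121793 sites (0.0107% and 0.0525%), beside 0.0102% and 0.0576% over all classes. Where a lower readable site had a tested readable partner at the other end of its fragment, 606 of 1027 partners were lower too and 1 was higher. Mouse line and population cannot be told apart in these calls. The counts also depended on single libraries, with 217 higher and 1069 lower without aOPC 3 and 1398 higher without aOL 2.

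Sites with reads in every library gave the more graded differences, and 50 higher and 223 lower ones had at least 10 in each. Fitted on such sites alone, 53 were higher and 104 lower of 67135 intron sites (0.0789% and 0.155%), beside 0.134% and 0.153% over all classes. The intron 1 site of Glud1, which encodes glutamate dehydrogenase, had 59, 152, 14 and 14 counts in aOPC 2, aOPC 3, aOL 2 and aOL 3, or 8.29, 8.88, 0.879 and 0.517 CPM. Both aOL libraries lay below both aOPC libraries, with a log2 change of -3.78 ± 0.35 (SE) and an edgeR adjusted p of 1.5e-05. In Acvr2b, the activin receptor type IIB gene, the intron 1 site at chr9:119421207 had 49, 146, 15 and 11 counts (log2 change -3.72 ± 0.38). The intron 3 site of Npas1, a transcription factor gene of neurons, had 29, 126, 11 and 14 counts. Samd4, which encodes an RNA-binding protein, had 53, 90, 13 and 14 counts at its site, and Myd88, an adaptor of Toll-like receptors, 67, 122, 19 and 19. The Acvr2b and Myd88 sites are on chromosome 9 in the same 5-Mb bin. All 5 lay on readable fragments, and the Samd4 site in one of the 25 bins. The Npas1 site lies in a repeat.

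In the other direction the changes were smaller. The Tbc1d5 site at chr17:50999765, in the third intron of a Rab GTPase-activating protein gene, had 10, 29, 119 and 196 counts (log2 change 2.13 ± 0.32, adjusted p = 0.00087), a call lost under 1 of 19 settings (adjusted p = 0.054 without aOPC 3). The Eftud1 site had 37, 94, 425 and 680 counts, but its 48-base sequence, in a repeat, occurs 8 times in the assembly. The sites in BC048602, in a repeat and on a fragment of 326 bases, in Gm7120 and under the name Mir1195, on a fragment of 386 bases, were also called, and the calls of the last 2 were lost under 5 of 19 and 3 of 14 settings. The name Mir1195 stands at 537 members, and none lies in the RefSeq gene of that name, so it is not the gene at this place.

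The largest fitted changes were at sites with no read in one population. Asap2, an Arf GTPase-activating protein gene, had 92 and 316 counts in aOPC and 0 in both aOL libraries at chr12:21240097, at least 105-fold lower against 3 counts per library. Zfhx3, a homeobox gene, Rbl2, a retinoblastoma family gene, and Rab31, a small GTPase gene, likewise had 85 to 94 counts in aOPC 2, 206 to 246 in aOPC 3 and 0 in aOL, with bounds from 84.4-fold to 87.9-fold. In aOL only, Rnf144a, a ubiquitin ligase gene, had 223 and 316 counts and Negr1, a neuronal adhesion gene, 212 and 299, at least 43.0-fold and 40.8-fold higher. Rbfox1, a splicing factor gene of neurons, had 195 and 320 counts at its site and Aplp1, of the amyloid precursor family, 201 and 279, at least 40.3-fold and 38.4-fold higher. The 4 sites lower in aOL lie on fragments of 86 to 246 bases, and the 4 higher ones on fragments of 491, 1083, 2672 and 4327 bases. The Asap2, Rbl2, Rnf144a and Aplp1 sites lie in the 25 bins, and the Rbl2 site lies in a repeat.

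Summed over the members of a gene, 65 of 13821 tested introns were higher in aOL (0.47%) and 217 lower (1.57%), 2.04% in all, by edgeR at an adjusted p under 0.05. Of the 65 higher sums, 35 had no readable member, and the fit on readable members called 7 higher (0.0544%) and 245 lower (1.9%) of 12878 genes, 1.96% in all. Without aOPC 2 the calls on all members were 175 and 333, and without aOPC 3 they were 518 and 912. The split of directions depended on the scaling, with 106 higher and 174 lower by library totals alone and 106 and 70 by the read totals of the study. Without sites at 3 counts or fewer in both libraries of a population, an alternative chosen after seeing the data, 7 were higher and 45 lower of 13737 genes, and neither Efemp1 nor any of the 8 largest increases named next had enough counts left to be tested. In the 25 bins lay 23 of the higher (35.4%) and 101 of the lower genes (46.5%), beside 5.57% of all tested genes. The largest increases were in Zfp955b, Cacybp, Cdc42, Zfp82, Ndufc2, Tmem9, Dnttip2 and Glrx3, with 3 to 8 members each, of which 1 in Dnttip2 was readable and no other. Cdc42, a small GTPase gene, had 1, 1, 99 and 140 counts, and all its members lie in one of the 25 bins. All members of Zfp82 and Dnttip2 lie in the 25 bins too. The largest decreases were in Gm5113, Trim11, Ncapg2, Aktip, Ang, Efemp1, Minos1 and Klhdc9. All members of Gm5113, Trim11, Aktip, Minos1 and Klhdc9 lie in the 25 bins. Efemp1, an extracellular matrix gene, had 85, 216, 5 and 3 counts over 3 members, a log2 change of -6.07 ± 0.38 (SE) with an adjusted p of 0.00017 (-7.32 and 6e-05 on its 2 readable members), and it lies in one of the 25 bins. Its RNA had log2 values of 11.4 and 10.9 for aOPC against 5.81 and 5.71 for aOL, groups that do not overlap (limma adjusted p = 0.047, and 0.058 without the filter on low values). In the other genes with RNA values in these 2 sets, RNA differed by at most 1.15 on the log2 scale.

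Oligodendrocyte and myelin genes had introns at 2.14, 1.92, 1.64 and 1.44 CPM per readable site (median of 18 genes with at least 5 readable members), against 1.29, 1.51, 1.45 and 1.39 CPM over 8270 genes. The median was highest in aOPC 2 and lowest in aOL 3, and both aOL values lay below both aOPC values. Of 27 tested genes in this list none was higher and 2 were lower in aOL, beside 0.47% higher and 1.57% lower over all tested genes, with a median log2 change of -0.24 beside -0.0036. On readable members again 2 of 23 were lower, beside 0.0544% higher and 1.9% lower over all genes (median -0.23 beside 0.01). Mobp (chr9:120149742-120181488), a structural myelin protein, had 105, 320, 113 and 204 counts over 8 members, or 2.34, 3.08, 1.17 and 1.21 CPM per readable site, and the sum over all 8 changed by -1.30 ± 0.18 (SE) on the log2 scale with an edgeR adjusted p of 0.0069 (-1.21 and 0.011 on the 6 readable members). Of its 5 tested sites all 5 had a log2 change below 0, and the 3 that passed the site test had 15, 16, 0 and 1 counts, 15, 53, 0 and 0, and 17, 78, 0 and 0. Without these 3 sites the sum was 58, 173, 113 and 203 counts (log2 change -0.42, adjusted p = 0.60). The call thus needed the sites with 0 or 1 read in each aOL library. They were left out for those low counts, which shrinks a decrease in any case. Dock10 (chr1:80501068-80758553), a guanine nucleotide exchange factor, had 1.22, 1.61, 0.911 and 0.821 CPM per readable site (log2 change -0.73 ± 0.12, adjusted p = 0.014 on 41 readable members). The sum over its 91 members had a log2 change of -0.53 ± 0.089 (adjusted p = 0.018), and of its 30 tested sites 23 had a change below 0, with 6 lower and 1 higher by the site test. In 5 of the 6 lower sites the aOL libraries had 0 or 1 read each, and the higher one had 0 reads in both aOPC libraries. Without these 6 sites the log2 change of the sum was -0.31 (adjusted p = 0.36). The Mobp call was lost with the read totals of the study (adjusted p = 0.79) and from sites with 3 reads in every library (0.75). The Dock10 call was lost under 6 of 16 settings, that one included, with adjusted p = 0.94 with the read totals of the study, 0.71 from sites with 3 reads in every library, 0.26 with library totals alone, 0.063 without aOL 2 and 0.27 without aOL 3. Mag, a myelin adhesion protein of the inner membrane, had 2.13, 1.72, 1.12 and 1.02 CPM per readable site and did not pass (adjusted p = 0.14 on readable members and 0.28 over all), and it lies in one of the 25 bins. Mbp, the myelin basic protein, at 2.21, 1.89, 1.79 and 1.65 CPM, did not pass either (adjusted p = 0.67 on 66 readable members and 0.53 over all 127). RNA of Mobp was at log2 17.9, 16.6, 17.3 and 17.6, so the populations overlapped.

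**Figure D5:**
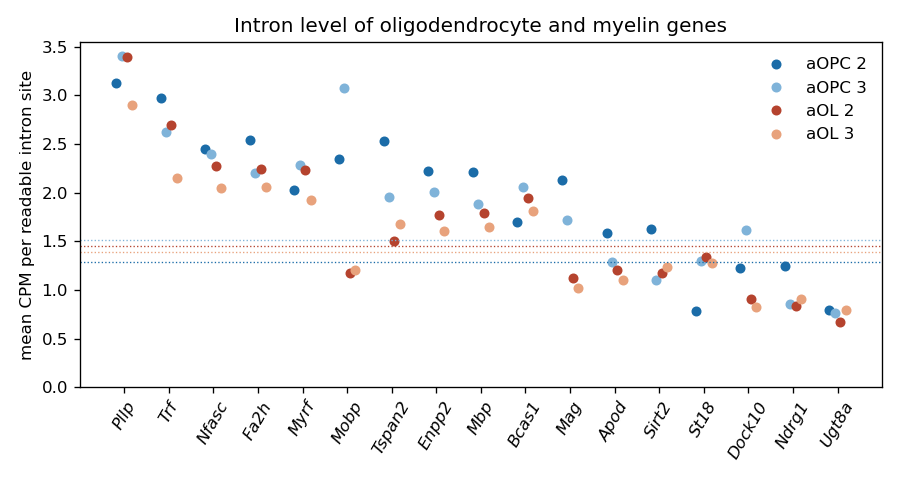
Mean CPM per readable intron site (y) of oligodendrocyte and myelin genes with at least 5 readable members (x, ordered by mean, 17 of the 18 such genes shown), 1 point per library and dotted lines for the median of 8270 genes in each. In 8 of the 17 genes plotted, among them Mobp, Mag, Dock10 and Mbp, both aOL points lie below both aOPC points (20.6% of all 8270 genes), in 0 of 17 above (12.4%), and Pllp, at 2.90 to 3.41 CPM, is the highest.

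Progenitor genes had a median of 1.55, 1.79, 1.73 and 1.61 CPM per readable site (21 genes), and 0 of 23 passed the edgeR test in either direction. Pdgfra introns had 1.65, 2.48, 2.81 and 2.35 CPM and Ptprz1, a receptor phosphatase of progenitors, 2.15, 3.58, 3.57 and 3.20 CPM, with mean RNA at log2 4.91 and 8.30. Neuronal genes had 1.10, 1.25, 1.25 and 1.21 CPM (18 genes), below the median of all genes in each library, as did endothelial genes at 0.821, 0.891, 0.822 and 0.898 CPM (7 genes). Microglia genes, at 1.14, 1.32, 1.19 and 1.09 CPM (3 genes), also lay below that median in each library. So did pericyte and fibroblast genes, at 1.10, 1.28, 1.25 and 1.18 CPM (5 genes). Astrocyte genes had 0.942, 1.40, 1.47 and 1.28 CPM (7 genes). In these 5 lists no tested sum over all members was called. On readable members Rbfox1 passed, at 1.49, 1.90, 1.30 and 1.20 CPM (log2 change -0.46, adjusted p = 0.020), where its sum over all members did not (adjusted p = 0.15). That is 1 of 19 neuronal genes, beside 1.9% lower over all genes. Whether the Rbfox1 call rested on sites with few or no reads in aOL was not tested. The genes that write and remove DNA methylation had introns at 1.36, 1.58, 1.47 and 1.45 CPM (9 genes). Among them Tet3 had 2.47, 3.02, 2.87 and 2.67 CPM, Tet2 1.496, 1.89, 1.90 and 1.73 and Tet1 1.16, 1.46, 1.44 and 1.22, none of which passed the test between the populations. Widely expressed genes (7 tested) and the solute carriers of the study (2 tested) had no call either.

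Across all genes, changes in introns had little relation to changes in RNA. RNA itself gave few calls by limma, with 1 gene higher and 8 lower of 11133 at the study's thresholds (0.00898% and 0.0719%), and 384 higher (3.45%) and 414 lower (3.72%) at an unadjusted p under 0.01. Without aOPC 2 the RNA calls were 1906 and 1899, and without aOL 3 they were 19 and 87. Across 7189 genes Spearman's coefficient between the log2 change of the intron sum and that of RNA was 0.03, and 52.0% of the genes had the same sign. Among the 474 of them with an unadjusted RNA p under 0.01 the coefficient was 0.14 and 59.5% had the same sign. Without aOPC 2 the coefficient was 0.015, and in the libraries numbered 3 alone it was -0.0045. Among 285 genes with RNA higher in aOL at an unadjusted p under 0.01, the median intron change was 0.03 and 57.2% were above 0. Among 189 with RNA lower, the median was -0.09 and 37.0% were above 0. The 6715 other genes had a median of 0.02 with 53.9% above 0. On readable members the 3 medians were 0.03, -0.03 and 0.04, so the genes with lower RNA stayed below the other genes, and those with higher RNA did not stand above them. RNA and RRHP libraries of one number share a cell pellet, and no test was made across genes.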

How the data were processed

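RRHP and RNA libraries of sorted aOPC and aOL (2 each) were analysed. The RRHP files hold unscaled counts for each CpG and strand as deposited by the authors, aligned to mm10 (GRCm38), with their promoter, exon, intron and island columns. The aligner and the treatment of duplicates are not given in the sources used here. The RNA files hold log2 values normalised by the authors and nearly equal in distribution between libraries, and the submitters' notes name BWA and DESeq2 1.2.5. Sites were joined by position and strand, and a site missing from a table was given 0.

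Counts were scaled to CPM of the library total. Sites and intron sums per gene were tested with edgeR 4.0.16 (TMM, glmQLFTest, population as the only term, R 4.3.3), RNA with limma 3.58.1 (log2 of at least 5 in 2 libraries). DESeq2 1.42.0 served as an alternative. Site tests took 10 reads in 2 libraries, gene sums edgeR's filterByExpr. Intron numbers and distances came from RefSeq models. The members, gene lists and tests were chosen with earlier results of these data known. Sites named are the 5 highest, the 6 largest called changes a direction with 10 reads in every library, and the 4 largest with 50 reads in both libraries of the higher population. Genes named are the 8 largest called sums a direction with at least 3 members, the 8 highest and lowest levels with at least 50 members, and listed genes. Names outside their RefSeq gene were left out of levels. Each fit was tested on simulated data. Some sites and genes that these rules name are not reported here.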

Additional observations from a re-analysis of the deposited data

How the results depend on the processing

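Fitted without aOPC 2, aOPC 3, aOL 2 or aOL 3 in turn, intron sites gave between 217 and 2974 higher and between 1069 and 2011 lower calls, the fewest without aOPC 3, gene sums between 54 and 518 higher and between 158 and 912 lower, and RNA between 19 and 1906 higher and between 87 and 1899 lower. A lone library is then assumed to vary like the other population. The intron level in aOL over aOPC ran from 0.992 without aOPC 2, a reversed direction, to 1.13. The coefficient of intron against RNA change ran from 0.015 to 0.034, and that of intron against RNA level from 0.066 to 0.076.

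Site calls higher and lower were 53 and 104 with 10 reads in every library, 1420 and 1021 without the 25 bins, and 980 higher under DESeq2. With edgeR's filterByExpr 2966 were lower. Alternatives chosen after seeing the data gave 74 and 158 without sites at 3 counts or fewer in a population, 86 higher on readable fragments, 39 and 827 there without the bins, 13 and 64 also without low sites, and 147 higher on readable fragments with the replicate block. Gene sums gave 106 higher with library totals alone, 106 and 70 with read totals of the study, 170 and 376 without a filter, 9 and 17 from sites with 3 reads in every library, 7 and 45 without sites at 3 counts or fewer in a population, 23 and 90 without the bins, 7 higher on readable fragments, and 3 and 109 there without the bins. RNA gave 0 and 0 without a filter and 4 higher with a pseudocount of 32. With the replicate number as a block, intron sums gave 152 higher and 349 lower and RNA 30 and 97, and sites 3277 and 2255. With crossed numbers the counts were 121 and 349 for sums, 140 and 207 for RNA and 3436 and 2664 for sites. The numbers do not pair the samples (correlation of deviations of the same number -0.07 for sites, -0.15 for sums and -0.07 for RNA).

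Intron against RNA level gave 0.086 per reference CCGG, 0.18 with at least 20 members, 0.17 on readable members and 0.27 on readable members with at least 20. Intron against RNA change gave 0.14 for genes with RNA p under 0.01, 0.021 on readable fragments without the bins and -0.0045 in the libraries numbered 3. The strand correlation of 0.13 became 0.49 with both fragments readable and -0.23 with 1. The Prox1 sum (log2 change -0.45, adjusted p = 0.042) was 0.019 with the study's read totals. The cause of these shifts was not tested. Of the named sums the Ndufc2 call was lost under 1 of 12 settings and that of Tmem9 under 2 of 12. Depth limits single sites most in aOPC 2, where 3 counts are 0.422 CPM.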

Other observations

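Intron names and genes did not always match. In 203 of the 15836 names, with 7509 members, under 90% of the sites lay in the RefSeq gene of that name, among them Mir1195 with 537 members, Bc1 with 461, Mir466n with 342, Large with 271 and Mir669e with 261.

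Prox1, a homeobox transcription factor and the gene with the eighth highest intron level, also had a called sum. Its readable introns had 3.69, 3.75, 2.80 and 2.48 CPM in aOPC 2, aOPC 3, aOL 2 and aOL 3, groups that do not overlap (log2 change -0.51 ± 0.099 (SE), edgeR adjusted p = 0.035 on its 26 readable members). The sum over all 52 members had a log2 change of -0.45 ± 0.090 and an adjusted p of 0.042. Its 3 called sites had 71, 127, 0 and 0 counts, 17, 40, 0 and 0, and 51, 199, 1 and 1, and without them the log2 change of that sum was -0.17 (adjusted p = 0.64). Its call was lost under 7 of 16 settings, with adjusted p = 0.14 without aOL 2 and 0.36 without aOL 3, and in 1 of the 7, the read totals of the study, the sign reversed. Its RNA had log2 values of 12.7 and 12.04 for aOPC against 13.3 and 13.3 for aOL, the opposite order, which did not pass limma's test (adjusted p = 0.18).

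Idh2, the mitochondrial isocitrate dehydrogenase, had the lowest adjusted p among the listed enzymes of cytosine modification and its cofactor (0.051, log2 change -0.64, and on 10 readable members 0.12 and -0.56), with 2.56, 2.80, 1.95 and 1.73 CPM per readable site. Both aOL libraries lay below both aOPC libraries, as in 20.6% of the 8270 genes with enough readable members. The gene did not pass the test.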
